A study of Mus musculus with 100 samples.

Results

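The genes of the DNA methylation machinery were followed through reprogramming: the DNA methyltransferase genes Dnmt1, Dnmt3a and Dnmt3b, the cofactor gene Dnmt3l and Uhrf1. They were chosen by name and are 5 of the 25965 genes in the expression table. Methyl groups on the cytosine of CpG dinucleotides are copied to the new DNA strand after replication by DNMT1, which UHRF1 brings to half-methylated CpGs. New methylation is laid down by DNMT3A and DNMT3B, and DNMT3L, which has no catalytic activity of its own, binds and stimulates both. In the germline de novo methylation sets the parental marks of imprinted genes, and in all dividing cells the maintenance pair has to keep them.

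RNA-seq was done on 18 libraries, 3 biological replicates of each of 6 groups, and every group was a hybrid with a maternal C57BL/6J (BL6) and a paternal Mus musculus castaneus (CAST) genome. Female MEFs, embryonic fibroblasts of E13.5 embryos, came from a cross of i4F-BL6 mothers with CAST fathers, and i4F carries a doxycycline-inducible cassette of Oct4, Sox2, Klf4 and c-Myc. F KSR2 and F KSR4 (female) and M KSR3 and M KSR5 (male) were induced pluripotent stem cell lines (KSR-iPSCs) from such MEFs, treated with doxycycline for 12 days and kept in medium with Knockout Serum Replacement until about day 50. TX 2i ESCs were TX1072 female embryonic stem cells of the BL6 by CAST cross, grown, per the study's methods, in fetal bovine serum medium to which inhibitors of MEK and GSK3 (2i) were added. Each KSR line grew from 1 picked colony, the lines of a sex were traced to 1 embryo, and male MEFs were not among the libraries. The replicates of a group were therefore repeats of 1 line and not of independent lines.

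The libraries held 13183036 to 17921280 reads on genes, and 17.7% to 19.9% of these could be assigned to the BL6 or CAST allele. Values are log2 RPM, reads scaled to the total of a library, with no correction for gene length, and 1 read corresponded to a log2 value of -4.29 to -3.89. Of 15 fibroblast markers all 15 fell in the pluripotent libraries, where their summed level was 0.0789% to 0.931% of the MEF mean, highest in M KSR5 replicate 3. All 10 pluripotency markers rose, and Pou5f1 had no read in any MEF library. F KSR4 replicate 2 stood apart from the other KSR-iPSC libraries in Dnmt3b and Dnmt3l, and results of these genes that rest on it are given with and without it. In bulk RNA, fewer cells expressing a gene and less RNA per cell cannot be told apart.

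The genes lie on 5 chromosomes of GRCm38. The table places Dnmt1 on the minus strand of chromosome 9 (20907206 to 20959888). On plus strands it places Uhrf1 on chromosome 17 (56303321 to 56323486), Dnmt3a on chromosome 12 (3806007 to 3914443), Dnmt3b on chromosome 2 (153649450 to 153687730) and Dnmt3l on chromosome 10 (78041947 to 78063622). The upstream end of Dnmt3l overlaps that of Aire, a thymic transcription regulator gene on the opposite strand, which had 0 reads in each MEF library and 44 to 716 reads in each pluripotent library. The authors' reads were strand-specific.

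RefSeq (GRCm38.p6) gave 12 promoters for these 5 genes, each of 250 bases before and 50 bases after a transcription start. The most CpG-rich promoter of each gene is shown, since this machinery as a whole lays down and copies the mark which CpGs carry, together with a second, internal start of Dnmt3a. Capitals mark CpG dinucleotides.
Dnmt1, chr9:20952574-20952873 (minus strand): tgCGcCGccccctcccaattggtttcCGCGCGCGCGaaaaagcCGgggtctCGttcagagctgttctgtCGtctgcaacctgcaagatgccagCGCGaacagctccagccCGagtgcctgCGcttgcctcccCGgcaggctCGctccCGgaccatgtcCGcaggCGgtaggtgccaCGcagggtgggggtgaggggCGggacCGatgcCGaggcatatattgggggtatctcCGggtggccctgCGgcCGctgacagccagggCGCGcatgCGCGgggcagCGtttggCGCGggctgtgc
Uhrf1, chr17:56304063-56304362 (plus strand): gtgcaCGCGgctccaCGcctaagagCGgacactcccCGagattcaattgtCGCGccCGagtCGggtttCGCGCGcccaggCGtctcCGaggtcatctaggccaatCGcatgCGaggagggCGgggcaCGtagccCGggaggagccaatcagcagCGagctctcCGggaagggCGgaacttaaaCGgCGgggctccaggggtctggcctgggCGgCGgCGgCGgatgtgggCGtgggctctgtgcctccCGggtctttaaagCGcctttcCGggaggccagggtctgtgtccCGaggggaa
Dnmt3a, upstream start, chr12:3806910-3807209 (plus strand): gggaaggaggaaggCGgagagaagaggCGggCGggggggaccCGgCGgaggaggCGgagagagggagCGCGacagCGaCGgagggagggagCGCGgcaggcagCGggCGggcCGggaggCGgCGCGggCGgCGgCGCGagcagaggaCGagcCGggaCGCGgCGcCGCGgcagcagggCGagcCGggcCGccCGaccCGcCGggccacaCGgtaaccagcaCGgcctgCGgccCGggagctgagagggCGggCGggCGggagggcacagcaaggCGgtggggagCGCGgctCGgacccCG
Dnmt3a, internal start, chr12:3891494-3891793 (plus strand): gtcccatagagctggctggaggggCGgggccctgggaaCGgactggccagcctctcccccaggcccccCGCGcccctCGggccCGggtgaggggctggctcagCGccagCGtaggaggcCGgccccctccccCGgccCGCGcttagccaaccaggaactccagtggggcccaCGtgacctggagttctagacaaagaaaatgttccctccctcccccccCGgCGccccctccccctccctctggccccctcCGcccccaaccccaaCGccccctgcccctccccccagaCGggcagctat
Dnmt3b, chr2:153649199-153649498 (plus strand): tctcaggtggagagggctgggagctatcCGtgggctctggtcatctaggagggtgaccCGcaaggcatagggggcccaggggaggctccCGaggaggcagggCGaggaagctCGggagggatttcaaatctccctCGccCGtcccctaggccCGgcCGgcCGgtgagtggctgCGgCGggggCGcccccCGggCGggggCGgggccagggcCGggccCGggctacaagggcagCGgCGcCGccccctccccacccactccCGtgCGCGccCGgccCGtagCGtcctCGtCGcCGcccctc
Dnmt3l, chr10:78042037-78042336 (plus strand): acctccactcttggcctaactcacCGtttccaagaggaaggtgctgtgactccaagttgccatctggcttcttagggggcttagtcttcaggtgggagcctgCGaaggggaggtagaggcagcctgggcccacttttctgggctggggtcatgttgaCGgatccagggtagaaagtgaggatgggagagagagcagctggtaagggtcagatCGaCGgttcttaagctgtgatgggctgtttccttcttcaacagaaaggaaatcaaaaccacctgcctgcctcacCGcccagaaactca
The promoters differed widely in CpG content. The upstream Dnmt3a promoter held 47 CpGs, a number reached by 1.44% of the 32851 RefSeq promoters of that length, whose median was 7. Those of Dnmt1 and Uhrf1 held 33 each (reached by 8.56% of promoters), that of Dnmt3b 30 (11.68%) and the internal Dnmt3a promoter 18 (29.72%). Dnmt3l stood at the other end with 6 CpGs in its richest promoter (56.44%), and 4 and 3 in its other promoters. The GC box GGGCGG, which itself holds a CpG, was searched on both strands. It was found in all 6 promoters shown and in 35.66% of all promoters. All of those shown but the internal Dnmt3a start were picked as CpG-rich, so this comparison is not of like with like. Among the windows not shown, the other Dnmt1 windows and the Dnmt3l window with 3 CpGs held no GC box. The E2F-type letters TTTGGCGC were found once, in the Dnmt1 promoter, against 0.51% of all promoters, and TTTCCCGC (1.07% of all promoters) was in none of the 12 windows. Such a match describes the letters in the window and was not tied to binding.

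All 5 genes rose from MEFs to pluripotent cells, by amounts that differed between genes: the maintenance genes and Dnmt3a several-fold, and Dnmt3b and Dnmt3l, with 157 and 11 reads over the MEF libraries, far more. The question of this comparison was how the machinery differs between the fibroblasts of origin and cells that have reached pluripotency. Of 14632 genes tested, 74.6% were called at an adjusted p under 0.05 in either direction and 42.1% were called higher, so a call in itself sets these genes apart from few others. All 15 pluripotent libraries lay above all 3 MEF libraries for each of the 5 genes, a separation seen upward in 25.9% of genes tested.

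Dnmt1, the maintenance methyltransferase gene, measured 7.15, 6.66 and 6.42 log2 RPM in the MEF libraries. It measured 8.71, 8.62 and 8.41 in F KSR2 and 8.41, 7.93 and 7.80 in F KSR4. M KSR3 had 8.66, 8.39 and 8.24, M KSR5 had 8.89, 8.51 and 8.15, and TX 2i ESCs had 8.43, 8.29 and 8.40. The pluripotent groups overlapped one another in every neighbouring step, and only the MEFs were apart. The fitted difference between pluripotent groups and MEFs was 1.65 on the log2 scale (SE 0.17, limma, adjusted p = 9.07e-08), the smallest among the 5 genes. In pooled reads Dnmt1 was 2.66-fold (F KSR4) to 3.75-fold (F KSR2) above MEFs.

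Uhrf1, which recruits DNMT1 to replicated DNA, measured 6.33, 5.46 and 5.19 log2 RPM in the MEF libraries. The female line F KSR2 had 8.94, 8.63 and 8.27, and F KSR4 had 7.88, 7.98 and 8.37. The male line M KSR3 had 8.54, 8.58 and 8.50, and M KSR5 had 8.87, 8.70 and 8.60. The TX 2i ESC libraries, at 9.04, 9.04 and 8.93, were above every KSR-iPSC library but F KSR2 replicate 1. The MEF libraries spread over more than 1 log2 unit, yet the highest of them remained below the lowest pluripotent one. The fitted rise was 2.93 (SE 0.18, limma, adjusted p = 1.32e-10), which was larger than that of Dnmt1. Relative to Dnmt1, Uhrf1 stood at -1.09 ± 0.23 log2 (SD, n = 3) in MEFs and at 0.20 ± 0.34 (SD, n = 15) in the pluripotent libraries, a shift of 1.29 (exact two-sided permutation test, p = 0.002451, the smallest that 15 against 3 libraries can give, adjusted p = 0.007353 over 12 tests of ratios).

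Genes of DNA replication moved the same way as the maintenance pair. Of 16 replication genes, 14 rose and none fell (87.5% called, against 74.6% of all genes), with a median difference of 2.20 log2 against 0.21 over all genes tested, and their summed RPM in pluripotent libraries was 257% to 479% of the MEF mean. F KSR4 replicate 2 had the lowest sum of the 15 pluripotent libraries. Cdt1, a factor that loads the replicative helicase, rose by 3.27 and Mcm5, a subunit of that helicase, by 2.81. The part of proliferation in the rise of Dnmt1 and Uhrf1 was not tested.

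Dnmt3a, a de novo methyltransferase gene with expression in many somatic tissues, measured 5.59, 5.22 and 5.14 log2 RPM in the MEF libraries. The female line F KSR2 had 8.00, 8.64 and 7.58, and F KSR4 had 7.72, 6.26 and 7.20. The male line M KSR3 had 8.18, 7.80 and 7.87, and M KSR5 had 9.05, 9.33 and 8.34. TX 2i ESCs were lower, at 6.27, 6.40 and 6.56. M KSR5 was highest and TX 2i ESCs were lowest among the pluripotent groups, and F KSR4 overlapped TX 2i ESCs through its replicate 2. The fitted rise from MEFs was 2.37 (SE 0.25, limma, adjusted p = 1.66e-07), and by group it ran from 2.18-fold in TX 2i ESCs (95% counting interval 2.07 to 2.30) to between 12.5-fold and 13.6-fold in M KSR5 (95% counting interval) in pooled reads. Counting intervals leave out the spread between libraries, which in M KSR5 ran from 8.34 to 9.33 log2 RPM.

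Dnmt3b, the de novo enzyme gene typical of early embryonic cells, was low in MEFs, with 44, 64 and 49 reads (1.43, 1.71 and 1.36 log2 RPM). The female line F KSR2 had 8.06, 8.36 and 7.43, and F KSR4 had 8.06, 5.56 and 7.42. The male line M KSR3 had 7.50, 7.62 and 7.50, and M KSR5 had 8.74, 8.97 and 8.03. TX 2i ESCs were lower than both male lines, at 7.49, 7.10 and 6.90. F KSR4 replicate 2 was the lowest pluripotent library, and M KSR5 had the highest mean but overlapped F KSR2. The fitted rise was 6.15 (SE 0.34, limma, adjusted p = 2.73e-11). Pooled reads rose from 157 in the MEF libraries to between 7662 (TX 2i ESCs) and 21188 (M KSR5), which was 52.5-fold to 144-fold.

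Dnmt3l, the cofactor gene with expression otherwise known from germ cells and early embryos, had 3, 3 and 5 reads in the MEF libraries (-2.45, -2.71 and -1.93 log2 RPM). The female line F KSR2 had 7.78, 7.93 and 8.91, and F KSR4 had 8.79, 5.03 and 8.49. The male line M KSR3 had 6.87, 8.00 and 7.91, and M KSR5 had 8.19, 8.61 and 8.25. TX 2i ESCs were lower than F KSR2 and M KSR5, at 6.62, 6.99 and 7.05. F KSR4 held the lowest pluripotent library in its replicate 2, while its replicate 1 was above every library of the male lines. The fitted rise was 10.06 (SE 0.51, limma, adjusted p = 9.65e-12), and in pooled reads it ran from 608-fold in TX 2i ESCs (339 to 1218) to 1695-fold in M KSR5 (947 to 3397), the width being set by the 11 MEF reads.

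**Figure D1:**
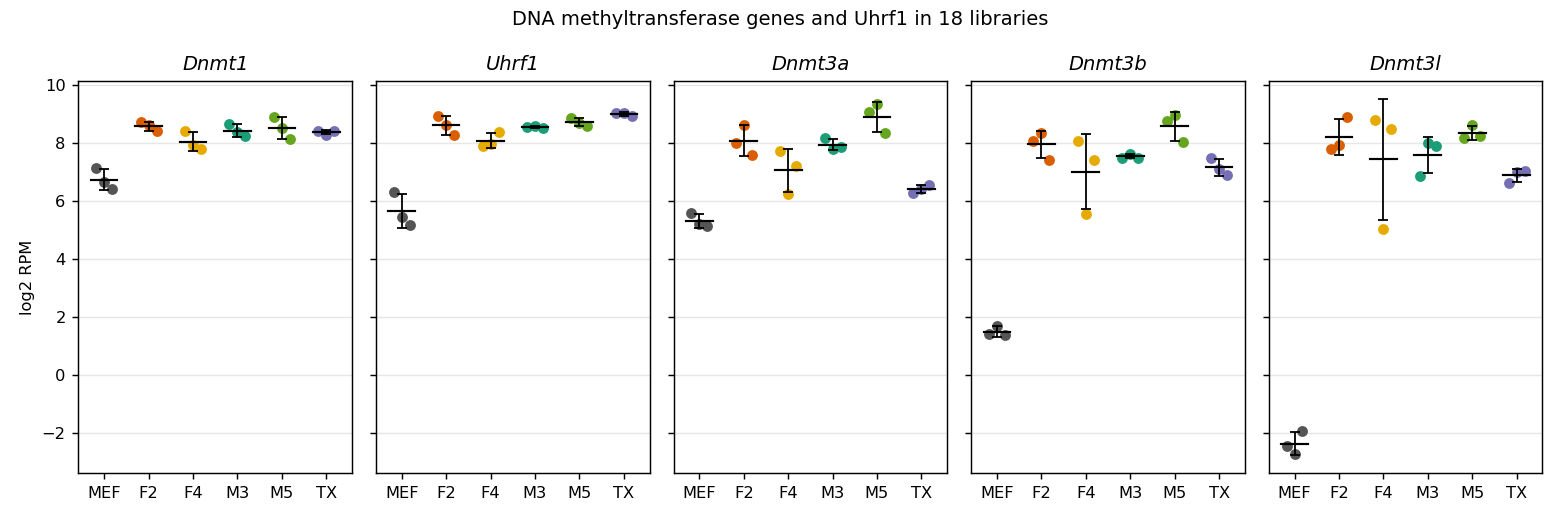
Level of each gene (log2 RPM, vertical axis) in MEFs, F KSR2 (F2), F KSR4 (F4), M KSR3 (M3), M KSR5 (M5) and TX 2i ESCs (TX); points are libraries, the line is the mean and the bar 1 SD (n = 3). All 15 pluripotent libraries lie above all 3 MEF libraries for each gene, with F KSR4 replicate 2 the low point of Dnmt3a, Dnmt3b and Dnmt3l among the KSR-iPSCs.

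Each pluripotent group taken alone was also higher than MEFs for every one of the 5 genes (limma), while of all genes 67% (F KSR2), 65.8% (F KSR4), 67.6% (M KSR3), 67.9% (M KSR5) and 66.5% (TX 2i ESCs) were called in either direction in these contrasts, which share the MEF libraries. The balance between the de novo genes shifted away from Dnmt3a. In log2 RPM, which carries no length correction, Dnmt3a exceeded Dnmt3b by 3.82 ± 0.33 (SD, n = 3) in MEFs and by 0.03 ± 0.52 (SD, n = 15) in the pluripotent libraries. Dnmt3l went on the same scale from 7.68 below Dnmt3a to 0.01 above it. Both shifts separated 15 of 15 libraries from the MEFs (exact two-sided permutation tests, p = 0.002451 and adjusted p = 0.007353 each). They restate the unequal rises of the single genes given above and are not separate evidence.

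Scaled to exon length, so that genes can be set against each other, the order of the genes turned over between the cell types. In MEFs Dnmt1 was highest with 17.4 ± 4.58 RPM per kb (SD, n = 3), overlapping Uhrf1 at 14.3 ± 6.26, and was followed by Dnmt3a at 3.50 ± 0.60, Dnmt3b at 0.657 ± 0.085 and Dnmt3l at 0.0748 ± 0.021. In all 5 pluripotent groups Dnmt3a was lowest of the 5 genes on this scale, at 7.43 ± 0.735 RPM per kb in TX 2i ESCs and up to 43.6 ± 14.2 in M KSR5. Uhrf1 led in TX 2i ESCs (137 ± 5.95) and M KSR3 (99.5 ± 2.49), and Dnmt3l had the highest mean in F KSR2, F KSR4 and M KSR5, where its libraries overlapped those of Uhrf1. The length of Dnmt3a used here, 11484 bases of merged exons, is the longest of the 5 and covers exons that one transcript does not use together, which lowers its value on this scale.

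**Figure D2:**
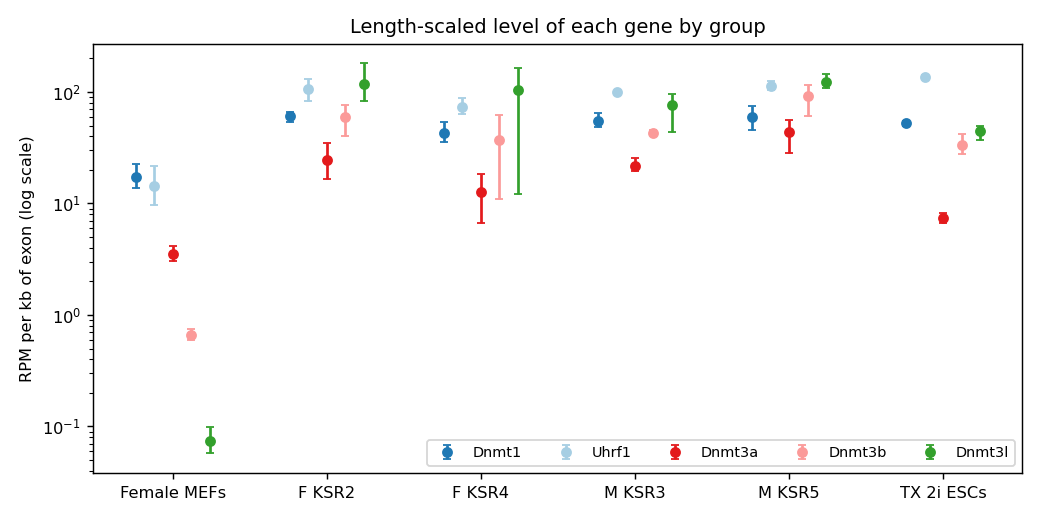
Mean RPM per kb of merged exon (log axis) of each gene in the 6 groups; bars run from the lowest to the highest of 3 libraries. In MEFs the genes fan out from 17.4 for Dnmt1 to 0.0748 for Dnmt3l, and in every pluripotent group Dnmt3a is the lowest.

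Known partners and antagonists of these proteins were read from lists chosen by function. Of 12 partners in maintenance, 10 rose and 1 fell (91.7% called, against 74.6% of all genes), with a median of 1.53 log2 against 0.21 over all genes tested. Hells, a chromatin remodeller needed for normal methylation of repeats, rose by 3.46 (SE 0.19). 2810417H13Rik, the gene of the PCNA-associated factor, was the one that fell, by 0.92. Dppa3, whose product keeps UHRF1 off chromatin, had 1 to 5 reads in MEF libraries and at least 88 in pluripotent ones.

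Of 10 measured regulators of de novo methylation, 8 rose and none fell, and this share of 80.0% called was close to the 74.6% of all genes, with a median of 1.31. Among them Zfp57, which guards methylation at imprinted regions, rose by 3.09 (SE 0.31). Prdm14, a repressor of Dnmt3b in embryonic stem cells, had 0 reads in each MEF library and at least 224 in pluripotent ones. Of 7 genes of 5-methylcytosine oxidation and repair, 5 rose and 1 fell (85.7% called, median 1.49). The oxygenase gene Tet1 rose by 6.41 and Parp1, a poly(ADP-ribose) polymerase gene of DNA repair, by 3.15, and Tet3 fell by 1.71. Of 8 reader genes, 1 rose (Mbd4, by 2.12) and 6 fell (87.5% called, median -0.90). Zbtb4 fell by 4.93 and Mbd2 fell by 1.95. Of 10 genes of the methyl donor cycle, 6 rose and 2 fell, 80.0% called and again close to all genes, with a median of 0.87. Shmt1 and Mthfd1, folate enzyme genes, rose by 2.97 and 2.62. Ahcyl1 fell by 1.01.

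The 12 KSR-iPSC libraries were then set against the 3 TX 2i ESC libraries, which asks how cells in serum replacement medium compare with cells held in serum with 2i. Dnmt3a was higher in KSR-iPSCs, Uhrf1 was lower by an amount that narrowly missed the threshold, Dnmt1 was level within its interval, and the calls of Dnmt3b and Dnmt3l hung on 1 library. Of 14632 genes 23% were called, 11% higher and 12% lower. Counts of libraries above or below the TX 2i ESCs are given for this comparison. How many of all genes, or of ratios between genes, set as many libraries apart was not counted. The lines were derived by reprogramming and the ESCs were not, so origin, serum and inhibitors cannot be told apart.

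Dnmt3a was higher in KSR-iPSCs by 1.59 log2 (SE 0.26, 95% interval 1.05 to 2.13, limma, adjusted p = 0.0002825), with 11 of 12 KSR-iPSC libraries above all TX 2i ESC libraries and F KSR4 replicate 2 just below them. Line by line it was higher in F KSR2 by 1.67, in M KSR3 by 1.54 and in M KSR5 by 2.50, with adjusted p of 0.002914, 0.002526 and 5.13e-05 in limma, against 12.8%, 23.1% and 18.2% of all genes called in these contrasts. In F KSR4 the difference was 0.65 (95% interval -0.03 to 1.33, adjusted p = 0.1883).

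Uhrf1 differed by -0.52 (95% interval -0.91 to -0.13, limma, adjusted p = 0.05177), and 11 of 12 KSR-iPSC libraries lay below all TX 2i ESC libraries. Its adjusted p ran from 0.01253 to 0.1594 over 25 alternatives, 8 of them past the threshold. In the single lines it was lower in F KSR4, at -0.93 (adjusted p = 0.01264, against 15.4% of genes called), and the other lines missed the threshold. Dnmt1 differed by 0.02 (95% interval -0.34 to 0.38, adjusted p = 0.9556), with libraries on both sides.

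Dnmt3b differed by 0.61 (95% interval -0.12 to 1.33, adjusted p = 0.2287) and Dnmt3l by 1.01 (95% interval -0.08 to 2.10, adjusted p = 0.1795). Without F KSR4 replicate 2 these became 0.79 (adjusted p = 0.009162) and 1.31 (adjusted p = 0.000987), both past the threshold in limma, where 29.6% of genes were called. In the single lines Dnmt3b was higher in M KSR5, by 1.41 (adjusted p = 0.03093), a call lost without TX 2i ESC replicate 2 (adjusted p = 0.08217) or 3 (adjusted p = 0.1046). F KSR4 replicate 2 held 590 reads of Dnmt3l where replicates 1 and 3 held 8020 and 5319.

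**Figure D3:**
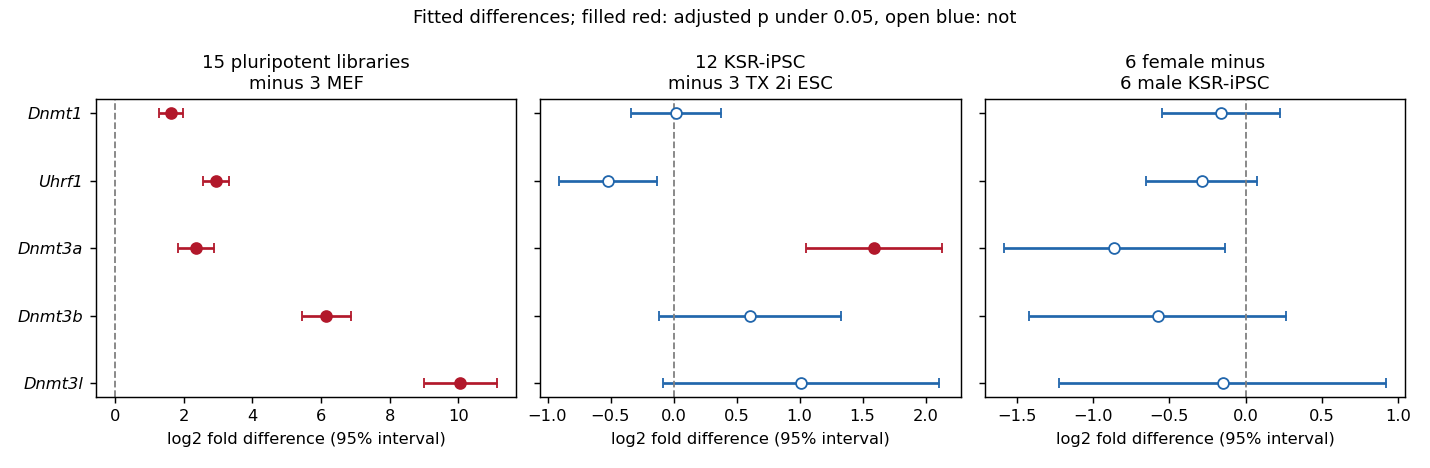
Fitted log2 difference with its 95% interval for each gene in 3 comparisons: pluripotent minus MEF libraries, KSR-iPSC minus TX 2i ESC libraries, and female minus male KSR-iPSC libraries. All 5 genes pass the threshold in the first panel (1.65 for Dnmt1 to 10.06 for Dnmt3l), Dnmt3a alone passes in the second (1.59), and none in the third.

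Of 4 proportions among the genes, that of Dnmt3a to Dnmt3b separated all KSR-iPSC libraries from the TX 2i ESC libraries, which the level of no single member did. Dnmt3a relative to Dnmt3b stood at 0.23 ± 0.32 log2 (SD, n = 12) in KSR-iPSCs and at -0.76 ± 0.44 (SD over 3 libraries) in TX 2i ESCs, and 12 of 12 KSR-iPSC libraries were above all TX 2i ESC libraries, F KSR4 replicate 2 included. The libraries almost touched: the lowest KSR-iPSC library, one of F KSR4, stood at -0.3405 and the highest TX 2i ESC library at -0.3456. The difference of the means, 0.98, gave p = 0.004396 in an exact two-sided permutation test, the smallest that 12 against 3 can give, and an adjusted p of 0.01055. Uhrf1 relative to Dnmt1 stood at 0.09 ± 0.29 in KSR-iPSCs and 0.63 ± 0.11 in TX 2i ESCs, with 11 of 12 libraries below, a difference of -0.54 (exact permutation test, p = 0.008791, adjusted p = 0.01758). Without TX 2i ESC replicate 1 or 2 both adjusted values exceeded 0.05, at 0.05275 and 0.08791. The ratio of Dnmt3a to Dnmt3b still separated the libraries left, and the smallest p that the test can give is larger with fewer libraries. Dnmt3l relative to Dnmt3a (-0.58) or to Dnmt3b (0.40) did not pass.

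**Figure D4:**
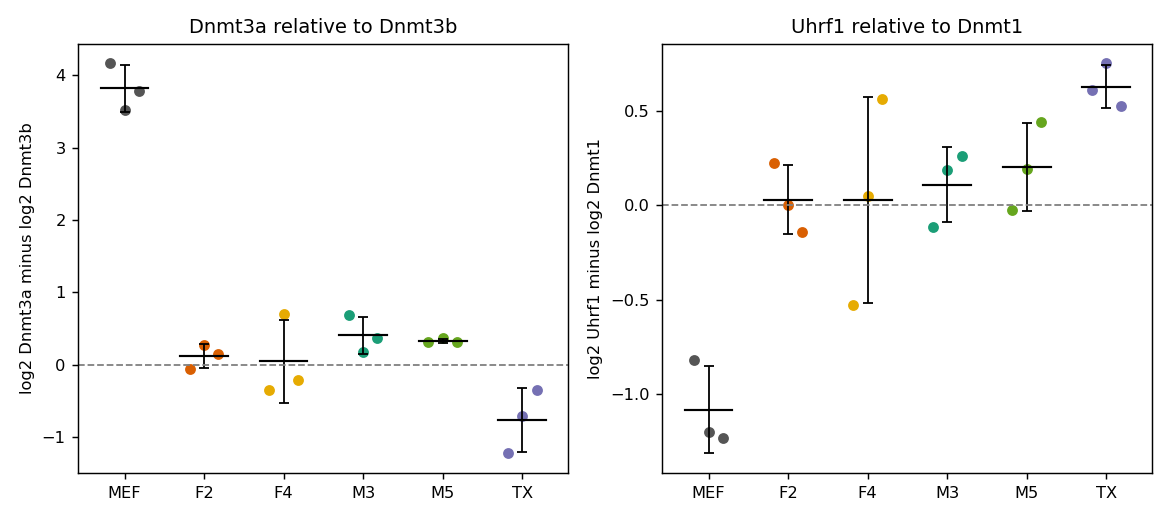
Difference of log2 RPM between Dnmt3a and Dnmt3b (left) and between Uhrf1 and Dnmt1 (right) in each library by group; the line is the mean and the bar 1 SD (n = 3). The KSR-iPSC libraries lie above TX 2i ESCs on the left (0.23 against -0.76 on average) and mostly below them on the right (0.09 against 0.63), with MEFs far off at 3.82 and -1.09. On the left the lowest F KSR4 library, at -0.3405, almost touches the highest TX 2i ESC library, at -0.3456.

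Among the regulators, Prdm14 was lower in KSR-iPSCs than in TX 2i ESCs, with a difference of -1.89 (SE 0.26, limma, adjusted p = 7.02e-05), and so was Kdm1a, a histone demethylase gene needed for global methylation, with -0.82. Of 12 maintenance partners, 2 were higher and 2 lower (33.3% called, against 23% of all genes), 2810417H13Rik by 1.24 among them, and Dppa3 differed by -0.88 (adjusted p = 0.2353). Lower in KSR-iPSCs were also the reader gene Zbtb4 (-1.11), the repair gene Smug1 (-0.77) and the methyl donor gene Ahcy (-0.75). Of 16 replication genes 3 were lower, among them Mcm4 (-0.88) and Cdc45 (-0.77), and none was higher. Called higher were the de novo regulator Setdb1 (0.37), the reader gene Mbd2 (0.71) and the methyl donor gene Mat2a (0.81). The shares called were 30.0% of de novo regulators and of methyl donor genes and 25.0% of readers. They were 14.3% of oxidation and repair genes and 18.8% of replication genes, against 23% of all genes. Tet1 differed by 0.68 and did not pass. The median of the 10 de novo regulators was 0.09 and that of the 12 partners -0.07, against -0.0045 for all genes tested. Beside these differences, 6 of 11 differentiation markers were higher in KSR-iPSCs and none was lower, their summed level being 62.1 to 260 RPM against 37.3 to 45.9 RPM in TX 2i ESCs. Nanog was lower, with a difference of -1.78, and Lin28a higher, with 1.99. F KSR4 replicate 2, at 84.0 RPM, was not among the extremes of that sum. The part of differentiated cells in the Dnmt3a difference was not tested.

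Female and male KSR-iPSCs were compared because female pluripotent cells with 2 active X chromosomes are known for low DNA methylation. None of the 5 genes passed the threshold, against 2.87% of 13609 genes called. Those were 216 higher and 174 lower in females, and 261 and 129 with median-ratio scaling. Dnmt3a came nearest, at 7.57 ± 0.80 log2 RPM in the 6 female and 8.43 ± 0.63 in the 6 male libraries, a difference of -0.86 (95% interval -1.59 to -0.14, limma, unadjusted p = 0.02273, adjusted p = 0.1862). Dnmt3b differed by -0.58 (95% interval -1.42 to 0.27), Uhrf1 by -0.29 (-0.65 to 0.08), Dnmt1 by -0.16 (-0.55 to 0.23) and Dnmt3l by -0.15 (-1.23 to 0.93). Without F KSR4 replicate 2 the Dnmt3l difference turned to 0.41 (-0.19 to 1.01) and those of Dnmt3b and Dnmt3a shrank to -0.19 (-0.79 to 0.41) and -0.60 (-1.23 to 0.03), none past the threshold. With all libraries the intervals leave room for differences of more than 2-fold in Dnmt3a, Dnmt3b and Dnmt3l. They treat the repeats of a line as independent, so they can be too narrow for each of the 5 genes, Dnmt1 and Uhrf1 included. Sex and embryo of origin cannot be told apart. Prdm14 was higher in the female lines by 1.06 (SE 0.23, adjusted p = 0.02059) and Kdm1a lower, at -0.62 (adjusted p = 0.04122). None of the 12 maintenance partners passed.

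Between the 2 lines of a sex none of the 5 genes passed either, where 1.14% of genes were called between F KSR2 and F KSR4 and 4.48% between M KSR3 and M KSR5. These counts hung on single libraries. The 167 genes called between the female lines became 66 without F KSR2 replicate 1 and 1660 without F KSR4 replicate 1, and the 656 between the male lines became 145 without M KSR3 replicate 3 and 1182 without F KSR4 replicate 2, which enters through the shared spread. The Dnmt3a differences were about as large as that between the sexes, 1.01 between F KSR2 and F KSR4 (95% interval 0.33 to 1.70, limma, adjusted p = 0.1305) and -0.96 between M KSR3 and M KSR5 (-1.64 to -0.28, adjusted p = 0.1044). Without F KSR4 replicate 1, Dnmt1, Dnmt3a and Dnmt3b passed between the female lines, at 0.72, 1.34 and 1.46, in a fit that called 11.4% of all genes. Without M KSR5 replicate 3, Dnmt3a passed between the male lines, at -1.24, where 4% of genes were called.

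Over the 15 pluripotent libraries, Dnmt3a and Dnmt3b varied together, with Pearson's r of 0.85 and Spearman's rho of 0.89, and r was 0.87 without F KSR4 replicate 2. Dnmt3b and Dnmt3l had r of 0.75, which dropped to 0.50 without that library, and Dnmt1 and Uhrf1 had r of 0.45. These libraries share groups, so the values are descriptions. By the same measure, over 14631 other genes, the closest to Dnmt1 were Cbl (r = 0.94), D14Abb1e (0.93) and Alms1 (0.93). The closest to Uhrf1 were 2900026A02Rik (0.92), B4galnt4 (0.92) and Accsl (0.90), and close to Dnmt3a were Lgr4 (0.96) and Drosha (0.93). Dnmt3b was followed by Pdzd4 (0.95), Fam49a (0.92) and Aqr (0.92), and Dnmt3l by Pnp2 (0.95), Dok2 (0.93) and Nup37 (0.92). The order rested on F KSR4 replicate 2: without it Cbl stayed first, while Lgr4 ranked 2, 2900026A02Rik 6, Pdzd4 6 (r = 0.89) and Pnp2 5 (r = 0.89). With all 15 libraries Dnmt3b ranked 59 for Dnmt3a, and Uhrf1 ranked 2225 for Dnmt1.

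The allelic reads add a readout that the levels do not hold. Dnmt3a changed here in 2 ways between MEFs and pluripotent cells: a smaller part of its reads could be assigned to an allele, and the assigned reads went from mostly maternal to mostly paternal. These comparisons across pooled groups were chosen after the values had been seen.

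In the MEF libraries 25.7% (95% Wilson interval 22.7 to 28.8), 22.2% (19.3 to 25.3) and 24.7% (21.6 to 28.1) of Dnmt3a reads carried an allele. In the 15 pluripotent libraries this was 8.59% (M KSR3 replicate 2, 7.79 to 9.46) to 11.9% (TX 2i ESC replicate 2, 10.4 to 13.6), so that the groups did not overlap. The mean fell by 14.1 percentage points, from 24.2 to 10.1 (exact two-sided permutation test, p = 0.002451, the smallest possible, adjusted p = 0.01716 over 14 tests). Of 5875 genes with at least 200 reads in every library, 0.27% had a log2 ratio of this share as low as the -1.27 of Dnmt3a. Dnmt1 (-0.03) and Uhrf1 (-0.13) stayed near the median of 0.01. Dnmt3b went the other way, from 19.9 ± 5.38% (SD, n = 3) to 27.5 ± 1.36% (SD, n = 15), on 157 MEF reads in all, and the MEF values of 20.5% (95% Wilson interval 11.2 to 34.5), 25.0% (16.0 to 36.8) and 14.3% (7.10 to 26.7) had intervals that reached into the pluripotent range of 25.9% to 31.1% (exact permutation test, p = 0.002451, adjusted p = 0.01716). Without any 1 MEF library, 15 against 2 libraries gave an adjusted value of 0.1029 for both genes, with the Dnmt3a difference between -15.1 and -13.4 points. The libraries stayed separated there, and the smallest p that the test can give is larger for 15 against 2. The share depends on which stretches of the transcript the reads cover, and RefSeq places the internal Dnmt3a start, printed above, 84764 bases downstream of the first one. The table counts whole genes, and the use of either start was not tested.

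Of the assigned Dnmt3a reads, 54.5% (95% Wilson interval 47.6 to 61.2), 60.5% (52.8 to 67.7) and 56.6% (49.0 to 63.9) were maternal in the MEF libraries. F KSR2 averaged 43.3 ± 8.01% and F KSR4 averaged 34.8 ± 2.91%, while M KSR3 stood at 35.7 ± 4.71%, M KSR5 at 41.8 ± 4.75% and TX 2i ESCs at 42.4 ± 5.29% (SD, 3 libraries each). All 15 pluripotent libraries lay below all MEF libraries, although the highest of them, F KSR2 replicate 2 at 52.3% (48.9 to 55.6), had an interval that overlapped those of the MEFs. Over the pooled groups the mean was 39.6 ± 5.89% (n = 15) against 57.2 ± 3.06% (n = 3), a difference of -17.6 percentage points (exact two-sided permutation test, p = 0.002451, adjusted p = 0.03077 over 14 tests). Leaving out any MEF library left 15 against 2 and adjusted values of 0.05147 to 0.09848. The libraries stayed separated, and the smallest p that the test can give is larger there. For each single group against MEFs an exact permutation test of 3 against 3 libraries cannot go below p = 0.1. All reads of chromosome 12 had a maternal share of 50.5% to 55.2% by group. How many of all genes separate MEFs from pluripotent libraries by maternal share was not counted.

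In RPM of each allele, taken over all reads on genes, the paternal Dnmt3a allele went from 4.60 in MEFs to 32.0 in M KSR5 and 19.7 in F KSR2, which was 6.96-fold and 4.29-fold. The maternal allele went from 6.06 to 24.1 and 16.5, 3.97-fold and 2.73-fold. In F KSR4 and TX 2i ESCs the maternal allele was at 0.899 and 0.728 times its MEF level while the paternal one was at 2.30 and 1.29 times. These folds count assigned reads only, of which Dnmt3a had a smaller part in the pluripotent libraries. Over all its reads Dnmt3a rose 3.84-fold in F KSR4 and 2.18-fold in TX 2i ESCs, more than either allele there, so the folds compare the alleles with each other and do not show that maternal expression fell.

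**Figure D5:**
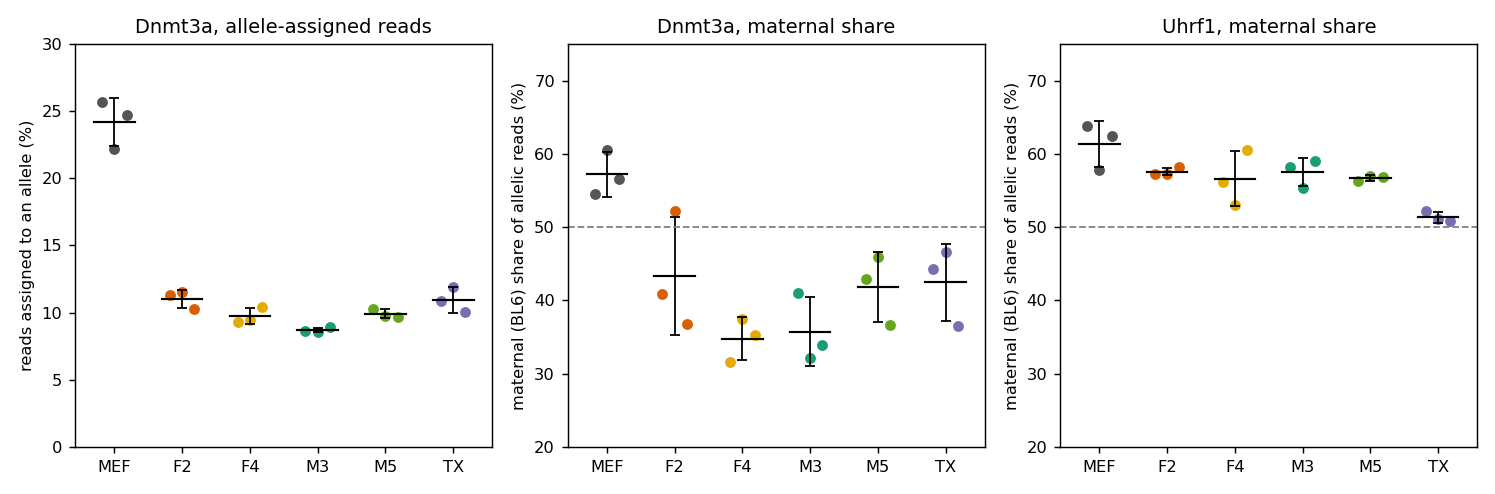
Percent of Dnmt3a reads assigned to an allele (left), maternal share of the assigned Dnmt3a reads (middle) and of the assigned Uhrf1 reads (right), in each library by group; lines are means, bars 1 SD (n = 3) and the dashed line 50%. Assigned Dnmt3a reads fall from 24.2% to 10.1%, their maternal share from 57.2% to 39.6%, and Uhrf1 has its lowest share, 51.4%, in TX 2i ESCs.

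Uhrf1 was biased to the maternal allele in MEFs (61.3 ± 3.18%, SD, n = 3) and in KSR-iPSCs (57.1 ± 1.88%, n = 12) and was near balance in TX 2i ESCs (51.4 ± 0.73%, n = 3). All 12 KSR-iPSC libraries were above all TX 2i ESC libraries, a difference of 5.75 percentage points (exact two-sided permutation test, p = 0.004396, adjusted p = 0.03077). How many of all genes separate these groups by maternal share was not counted. Without any 1 TX 2i ESC library the adjusted value of Uhrf1 was 0.07692. The libraries stayed separated there, and with fewer libraries the smallest p that the test can give is larger. Dnmt1 stayed slightly paternal in all groups, at 45.7% to 47.5%, and Dnmt3b held 43.6% to 52.4% in the pluripotent groups, its MEF share resting on 7 to 16 reads a library. Dnmt3l had at most 1 allelic read in a MEF library, so no share was taken there, and its shares elsewhere ran from 48.1% in F KSR4 to 58.4% in M KSR5. Between female and male KSR-iPSCs the shares of Dnmt3b (4.27 points) and Dnmt3l (-5.38 points) had adjusted p of 0.07576 and 0.07879 in exact permutation tests. Intervals cover counting error only.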

How the data were processed

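Per the labels and the study's methods, the authors made strand-specific polyA RNA-seq libraries, trimmed reads with Trim Galore (the submitters' notes name 0.6.1 and 0.6.5), aligned them to GRCm38 with HISAT2 2.1.0 and counted them on genes with SeqMonk. The labels give paired-end and the methods single-end reads, which was not resolved. The deposited values are log2 RPM of 25965 genes, in 72 columns of 18 libraries: all reads, unassigned, BL6 and CAST reads. Genes without reads were held at 0.9 read, and 99.96% to 100% of values per library lay within 0.05 of a whole read. The table's gene ID names another gene in the rows of Dnmt3b and Dnmt3l, so rows were matched by symbol and position.

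Genes above 0 in at least 3 libraries compared were tested with limma 3.58.1 (R 4.3.3, intensity trend) on the log2 values, with Benjamini-Hochberg adjustment over all genes tested and a threshold of 0.05. One fit of 18 libraries gave all contrasts but female against male, which used 12. Shares and ratios were tested by exact two-sided permutation, shares with at least 5 allelic reads per library. Pooled reads gave folds with 95% counting intervals. Exon lengths came from GENCODE and promoters from RefSeq, both on GRCm38. The fit was tested on simulated data. Named genes were the 5 members, up to 2 genes per direction with the largest change in each functional list among those called whose libraries did not overlap, and the 3 most similar genes per member; other genes were named after their values were seen, and some that the rule names are not reported here. The members were picked by name and the lists by function, both with earlier results of these data known. Nothing says that replicates were separate derivations, so p-values measure the spread between these samples. Alternatives were log2(RPM + 1), no filter, limma-voom on recovered reads, median-ratio scaling, a replicate block, other sample sets and leaving out each library. Samples of targeted bisulfite sequencing were not used here.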

Additional observations from a re-analysis of the deposited data

Results flagged for a closer look

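Of 38 sets of 6 libraries looked at (the female and the male KSR-iPSCs, for levels, ratios, maternal shares and assigned shares), 5 held a library far from the others by Dixon's test, where chance gives about 5% of sets. F KSR4 replicate 2 was low in Dnmt3b, at 5.56 log2 RPM against 7.42 to 8.36 in the other female libraries, and in Dnmt3l, at 5.03 against 7.78 to 8.91. F KSR4 replicate 3 stood out in allelic reads: its maternal share of Dnmt3b was 53.8% against 47.4% to 49.1%, the assigned share of Dnmt1 reads was 19.3% against 25.4% to 27.9%, and that of Uhrf1 reads was 26.9% against 18.7% to 20.6%. All 5 fell on libraries of the line F KSR4, whose replicate 3 also had the fewest reads on genes, 13183036.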

How the results depend on the processing

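The rise of all 5 genes over MEFs passed the threshold in all 25 alternatives, and so did the higher Dnmt3a in KSR-iPSCs than in TX 2i ESCs (1.51 to 1.76). Uhrf1 against TX 2i ESCs passed with limma-voom (-0.48), median-ratio scaling (-0.53), the replicate block (-0.52) and the 15 pluripotent libraries alone (-0.52), and ran from -0.56 to -0.47 when single libraries were left out. Dnmt3b ran from 0.47 to 0.79 and Dnmt3l from 0.84 to 1.31, passing without F KSR4 replicate 2 and, chosen after seeing the data, without that library and M KSR5 replicate 3 together (0.86 and 1.32). Dnmt3a between the sexes passed only in the fit of all 18 libraries (-0.86). Single libraries left out moved the ratio of Dnmt3a to Dnmt3b between 0.75 and 1.19 against TX 2i ESCs, that of Uhrf1 to Dnmt1 between -0.59 and -0.48, and that of Dnmt3a to Dnmt3b between the sexes between -0.41 and -0.20, where it passed without F KSR4 replicate 2 (adjusted p = 0.01732). Genes called between KSR-iPSCs and TX 2i ESCs ran from 2125 to 4317. Between the sexes they ran from 187 to 521, and were 232 with no filter, 138 with line as a random effect, 4 with line means, 1523 in the fit of all 18 libraries and 665 without both named libraries. The cause was not tested. Median-ratio scaling moved the median of all genes against MEFs from 0.21 to -0.03. Of 45 same-numbered pairs of libraries from different groups, 13 had a correlation of deviations over 0.1. Their median was 0.039 (-0.197 to 0.382), against -0.01 for pairs with different numbers. Dnmt1 was highest in the library numbered 1 in 6 of 6 groups and Uhrf1 in 4 of 6. The block took the adjusted p of the Dnmt1 rise (limma) from 9.07e-08 to 2.25e-09. Whether the numbers mark samples handled together was not tested. The replicate block changed the call of Uhrf1 above and of no other member in any comparison. Dnmt3l between the sexes changed sign, uncalled, without F KSR4 replicate 2 (0.41). No share could be tested for Dnmt3l in MEFs, where depth left 11 reads.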
